A study of Mus musculus with 4 samples.

Results

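*Car2*, *Car4* and *Car12* are 3 of the 16892 genes in a single-cell RNA map of the mouse epididymis and vas deferens, and were taken by their symbols from the table of raw counts. Carbonic anhydrases interconvert carbon dioxide and water with bicarbonate and a proton. *Car2* encodes a cytosolic enzyme, *Car4* an enzyme anchored to the outer face of the plasma membrane by a lipid, and *Car12* an enzyme that spans the membrane with its catalytic domain outside the cell. In the epididymis, where a low pH and little bicarbonate keep sperm quiescent, clear cells secrete protons through a vacuolar ATPase, principal cells form most of the epithelium, and basal cells lie beneath both.

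The material came from untreated male FVB/NJ mice of 10 to 12 weeks. The ducts of 4 mice were cut by eye into caput, corpus, cauda and vas deferens, the 8 pieces of each region were pooled, and a 10x library of 3′ tags was made from each of the pools. The caput, corpus, cauda and vas deferens libraries held 1433, 2325, 1616 and 3506 cells with 4408989 to 10744928 unique molecular identifiers (UMIs), and the authors' table of cells placed each cell in 1 of 34 populations. With 1 library per region no value has a replicate, animals cannot be told apart, and no test between regions was possible. Since the clustering used these counts too, differences between cell types are descriptions without a test.

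A level is the sum of the UMIs of 1 gene in a set of cells, scaled to 1000000 UMIs in the set (UPM), with its exact 95% Poisson interval in brackets. All intervals cover counting error only. Because tags were counted at the 3′ end, levels were compared between cells and not between genes. Clear cells numbered 73, 132, 105 and 38 from the caput to the vas deferens, and principal cells 736, 929, 931 and 1360. The median depth was 4430 UMIs in clear cells, 4333 in basal cells and 934.5 in principal cells.

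The labels were compared with markers. The authors named clusters by markers in these same counts, *Atp6v0c*, *Atp6v1a*, *Itga6* and *Krt14* among them, so this is not an independent check. All 6 clear cell markers, 7 of 8 principal cell markers and 5 of 6 basal cell markers were highest in their own type. The exceptions were *Slc9a3*, which had 1 UMI in all cells, and *Itga6*, which was highest in endothelial cells. The 38 clear cells of the vas deferens stood apart. Their summed principal cell markers came to 10106 UPM, against 793 to 1606 UPM in clear cells of the other libraries, and their summed clear cell markers to 7283 UPM, against 12445 to 13447 UPM. Their summed basal cell markers were also raised, with 801 UPM against 148 to 228 UPM. The part of these markers in the levels of the 38 cells was not tested. Among all cells, 43 barcodes occurred in more than 1 library, which touched 1 clear cell and 15 principal cells of the corpus. Leaving out the 86 cells involved changed the pooled ratio of clear to principal cells from 4.61 to 4.59 for *Car2*, from 0.0571 to 0.0577 for *Car4* and from 38.2 to 37.9 for *Car12*.

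*Car2* was found in all 3 epithelial cell types and in endothelium, *Car4* in principal cells of the corpus, and *Car12* in clear and basal cells. The cytosolic enzyme gene thus had the widest range, and the genes for both enzymes that act outside the cell were found in different cell types. The plot of levels by population shows this division.

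**Figure D1:**
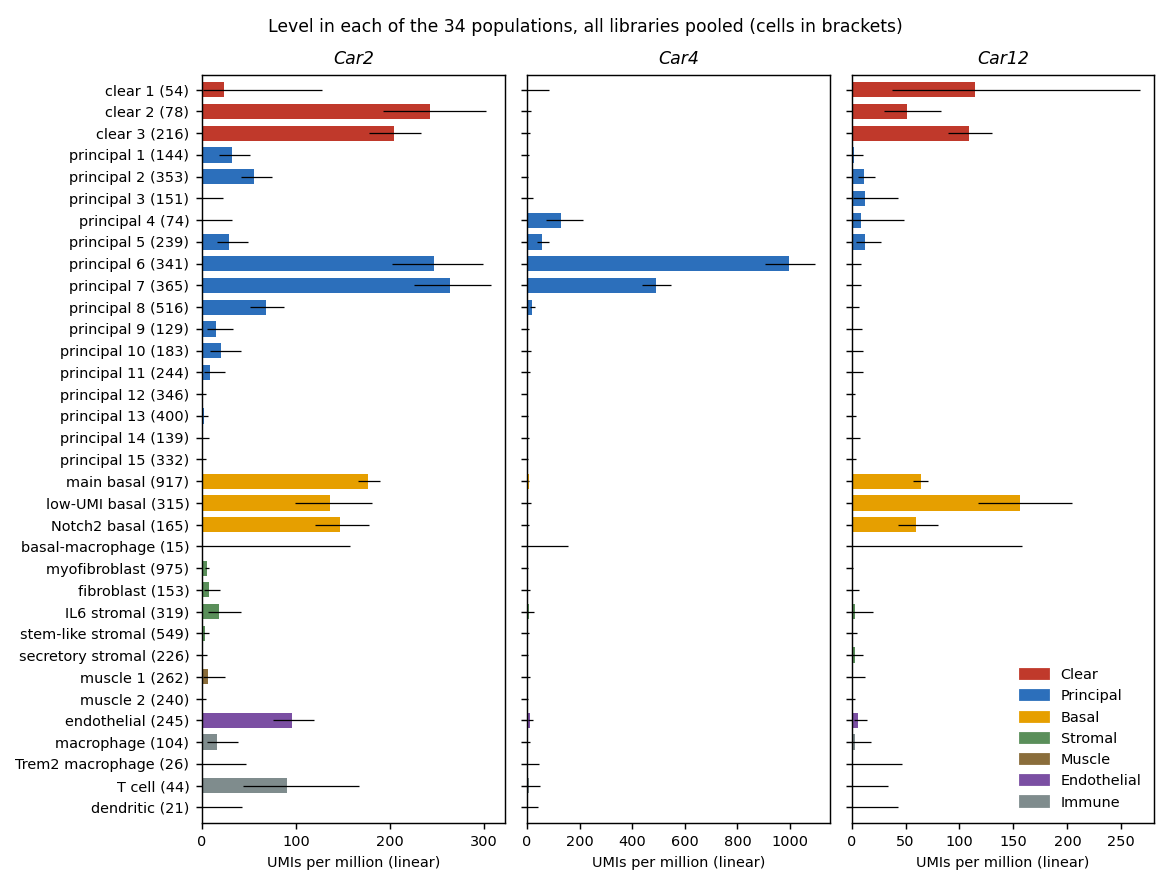
Level of each gene in UPM on a linear axis, in each of the 34 populations with all libraries pooled and the number of cells in brackets. Bars are levels and lines exact 95% Poisson intervals for counting error. *Car2* stands high in clear 2 and 3, principal 6 and 7 and the main, low-UMI and Notch2 basal populations. *Car4* stands high in principal 6 and 7, and *Car12* in the clear populations and these basal populations. The 15 basal-macrophage cells, counted as basal, had no *Car2* or *Car12* UMI.

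*Car2* lies on chromosome 3, 14886273 to 14900770 on the plus strand of GRCm38, and had 1915 UMIs in all cells. By cell type, clear cells were highest with 207 UPM (185 to 232, 303 UMIs). Basal cells had 170 UPM (160 to 181, 1054 UMIs) and endothelial cells 95.8 UPM (75.9 to 119, 80 UMIs). Principal cells had 45.0 UPM (40.8 to 49.4, 430 UMIs) and immune cells 25.8 UPM (14.4 to 42.5). Stromal cells had 4.62 UPM (3.12 to 6.60) and muscle cells 1.97 UPM (0.406 to 5.75). Intervals of neighbors in this order overlapped for principal and immune cells and for stromal and muscle cells. *Car2* is also an enzyme of red blood cells, whose 6 markers had 73 UMIs in all 8880 cells.

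In clear cells *Car2* was found in every library. It had 263 UPM (205 to 333) in the caput, 176 UPM (140 to 218) in the corpus, 207 UPM (172 to 248) in the cauda and 207 UPM (141 to 294) in the vas deferens. These intervals overlapped, although the ratio of the corpus to the caput was 0.667 (0.479 to 0.931). In principal cells the level changed far more, with 37.1 UPM (28.6 to 47.4) in the caput, 202 UPM (179 to 226) in the corpus, 43.7 UPM (34.4 to 54.7) in the cauda and 0.854 UPM (0.233 to 2.19, 4 UMIs) in the vas deferens. The corpus stood above every other library, and the vas deferens below.

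Whether clear or principal cells had more *Car2* depended on the library. Clear cells had 4.61 times (3.97 to 5.35) the *Car2* level of principal cells with all libraries pooled. Within libraries the ratio was 7.09 (4.98 to 10.1) in the caput, 4.74 (3.53 to 6.41) in the cauda and 242 (85.6 to 945) in the vas deferens, but 0.871 (0.673 to 1.12) in the corpus, where the interval includes 1. Leaving out the corpus raised the pooled ratio to 12.6, and leaving out the vas deferens lowered it to 2.38. Over single cells the ratio was 1.88 with the deposited size factors and 2.38 as a mean of each cell's UPM.

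**Figure D2:**
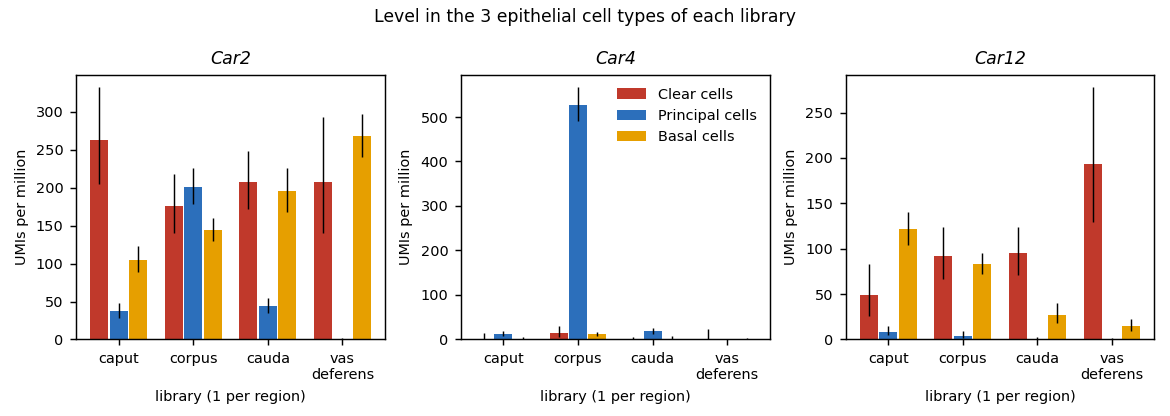
Level of each gene in UPM in clear, principal and basal cells of each library. Bars are levels and lines exact 95% Poisson intervals for counting error, with 1 library per region. In the corpus, principal cells reach 202 UPM for *Car2* and 528 UPM for *Car4*, and *Car12* stays at or below 8.70 UPM in principal cells of every library.

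Among principal cells *Car2* was concentrated in principal 6 and principal 7, a pair of corpus populations with 706 cells. It had 247 UPM (202 to 299, 105 UMIs) in principal 6 and 264 UPM (226 to 307, 170 UMIs) in principal 7, a ratio of 0.934 (0.725 to 1.20) that includes 1. Together they had 257 UPM (228 to 289), against 18.2 UPM (15.5 to 21.4) in the other 13 principal populations. Of these, principal 8, mostly from the cauda, came next with 67.6 UPM (51.2 to 87.6), and principal 2 of the caput had 55.7 UPM (40.9 to 74.0). Principal 3, 4, 14 and 15 had no UMI, with upper limits of 22.2, 32.1, 7.77 and 4.49 UPM. The limits of principal 3 and 4 lie above the 18.2 UPM of the 13 together. Without principal 6 and 7, a choice made after their levels were seen, clear cells had 11.4 times the level of principal cells.

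For *Car2*, clear 2 stood above clear 3 in the caput, but they did not differ beyond counting error in the corpus or over all libraries. The comparison over all libraries sets clear 2 of the caput and corpus against clear 3 cells that also came from other libraries. The main population, clear 3, had 204 UPM (178 to 233, 222 UMIs in 216 cells), and clear 2, the Amylin-positive cells of the caput and corpus, 243 UPM (193 to 302, 80 UMIs in 78 cells). Their ratio was 1.19 (0.910 to 1.54), but within the caput it was 2.19 (1.28 to 3.89), with 356 UPM in clear 2 and 163 UPM in clear 3, and within the corpus 0.793 (0.488 to 1.27). The paper names carbonic anhydrase II as a reported marker of narrow cells. It describes the gene as not enriched in its Amylin-positive cluster, without a split by library. Clear 1, a group of 54 cells with a median of 698.5 UMIs, had 1 UMI, that is 22.9 UPM (0.580 to 128).

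To compare how many cells showed a gene, each cell was thinned to 1000 UMIs and shallower cells were left out. The loss was unequal, with 238 of 348 clear, 1155 of 1412 basal and 1894 of 3956 principal cells kept. Of the principal cells of the corpus, 346 of 929 were kept. *Car2* was then seen in 40 of 238 clear cells (16.8%, 12.3 to 22.2), 148 of 1155 basal cells (12.8%, 10.9 to 14.9) and 79 of 1894 principal cells (4.17%, 3.32 to 5.17). In the corpus the shares were 14 of 81 clear cells (17.3%, 9.78 to 27.3) and 53 of 346 principal cells (15.3%, 11.7 to 19.6). Muscle cells, the type with the lowest *Car2* level, had 1 of 363 (0.275%) at a median depth of 1803 UMIs. Unthinned, the shares were 33.3% of clear, 26.4% of basal and 6.24% of principal cells.

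Basal cells had the larger part of the *Car2* UMIs, 55.0% of the gene's total against 23.2% of all UMIs. Their level rose from one library to the next along the duct, with 105 UPM (88.7 to 123) in the caput, 145 UPM (130 to 161) in the corpus, 196 UPM (168 to 226) in the cauda and 268 UPM (241 to 297) in the vas deferens, a ratio of 2.55 (2.10 to 3.11) between the ends. The main basal population alone gave 92.8, 148, 222 and 287 UPM in the same order. The smaller basal populations did not follow this order, with 84.2, 169, 203 and 106 UPM in the low-UMI cells, from 4 to 25 UMIs a library, and 370, 120, 55.0 and 185 UPM in the Notch2 cells, from 8 to 39 UMIs. Clear cells had 2.51 times (1.86 to 3.36) the level of basal cells in the caput, and the ratio was 1.21 (0.942 to 1.55) in the corpus, 1.06 (0.836 to 1.34) in the cauda and 0.772 (0.517 to 1.12) in the vas deferens, where each interval includes 1. The summed basal markers in these cells lay between 4472 and 5952 UPM, and the summed endothelial markers between 17.4 and 35.4 UPM in the epididymis and at 127 UPM in the vas deferens. The part of these markers in the result was not tested.

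*Car4* lies on chromosome 11, 84957786 to 84966044 on the plus strand. Of its 868 UMIs, 749 were in principal cells of the corpus. By type, principal cells had 83.9 UPM (78.1 to 89.9, 802 UMIs) and endothelial cells 12.0 UPM (5.74 to 22.0, 10 UMIs). Basal cells had 5.66 UPM (3.94 to 7.87, 35 UMIs) and clear cells 4.79 UPM (1.93 to 9.87, 7 UMIs). Below principal cells the intervals of neighbors overlapped. Stromal cells had 13 UMIs, immune cells 1 and muscle cells none.

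Principal cells had 12.2 UPM (7.54 to 18.6, 21 UMIs) of *Car4* in the caput, 528 UPM (491 to 567) in the corpus, 18.4 UPM (12.6 to 26.0, 32 UMIs) in the cauda and no UMI in 1360 cells of the vas deferens, where 3 UMIs would be 0.641 UPM. The corpus did not overlap with any other library. Over all libraries, principal 6 had 996 UPM (903 to 1095, 424 UMIs) and principal 7 had 491 UPM (438 to 548, 316 UMIs), a ratio of 2.03 (1.75 to 2.35), while their *Car2* levels did not differ beyond counting error. Next came principal 4 with 130 UPM (73.0 to 215, 15 UMIs) and principal 5 with 57.8 UPM (38.4 to 83.5, 28 UMIs), which held cells of both the caput and the corpus. All 21 UMIs of the caput were in these, 5 in principal 4 and 16 in principal 5. The 13 populations other than principal 6 and 7 had 7.30 UPM (5.60 to 9.36) together, and 8 of the 15 principal populations had no UMI.

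*Car4* was rare in clear cells. In the caput, cauda and vas deferens no clear cell had a UMI. In the corpus 4 clear cells held 7 UMIs, 1 cell in clear 2 and 3 in clear 3, and 1 of the 4 was a called doublet. Their level, 15.0 UPM (6.03 to 30.9), was near those of corpus basal cells with 12.2 UPM (8.21 to 17.4), stromal cells with 5.08 UPM (2.44 to 9.34) and endothelial cells with 24.3 UPM (6.63 to 62.3). After thinning, 0 of 81 clear cells of the corpus had a UMI (3 cells would be 3.70%), against 111 of 346 principal cells (32.1%, 27.2 to 37.3) and 3 of 398 basal cells (0.754%, 0.156 to 2.19). In principal 6 it was 72 of 139 cells (51.8%). Unthinned, the shares in the corpus were 3.03% of clear and 22.4% of principal cells.

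The pooled ratio of principal to clear cells was 17.5 (8.46 to 43.7) for *Car4*, and 35.2 (17.0 to 87.9) within the corpus. In the other epididymal libraries clear cells had no UMI, and the upper limit of the ratio of clear to principal cells was 1.24 in the caput, which includes 1, and 0.367 in the cauda. Without the corpus library no clear cell had a UMI, and without principal 6 and 7 the pooled ratio was 1.52. In the corpus there were 0.382 *Car2* UMIs for each *Car4* UMI in principal cells, 11.7 in clear cells and 11.9 in basal cells, the clear cell value resting on 7 *Car4* UMIs.

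*Car12* lies on chromosome 9, 66713686 to 66766845 on the plus strand, and had 597 UMIs. Clear cells had 95.8 UPM (80.6 to 113, 140 UMIs) and basal cells 68.2 UPM (61.9 to 75.1, 422 UMIs). Then came endothelial cells with 5.99 UPM (1.94 to 13.97, 5 UMIs, all from the caput), principal cells with 2.51 UPM (1.61 to 3.73, 24 UMIs), immune cells with 1 UMI, stromal cells with 5 UMIs and muscle cells with none, whose intervals overlapped with at least one neighbor. Basal cells had 11.4 times (4.85 to 35.3) the level of endothelial cells, the next type in this order.

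No annotated gene of GENCODE lies within 1000 bases of any of the 3 genes. Of the 3 genes, *Car4* and *Car12* were matched in the RefSeq promoter table of GRCm38 and *Car2* was not. The 250 bases before the transcription start are shown for these, whose RNA was found in different cell types. *Foxi1*, a forkhead factor, was among the clear cell markers, and the forkhead core TGTTTA was searched on both strands and is in capitals. It occurs once in the *Car12* window (chr9:66713436-66713685, plus strand) and not in the *Car4* window (chr11:84957504-84957753, plus strand). The word TATAAA is in neither. Of 32851 promoter windows of this length, 12.0% hold the first and 12.4% the second, so that a match is a description of these letters and not of a binding site.
Car12: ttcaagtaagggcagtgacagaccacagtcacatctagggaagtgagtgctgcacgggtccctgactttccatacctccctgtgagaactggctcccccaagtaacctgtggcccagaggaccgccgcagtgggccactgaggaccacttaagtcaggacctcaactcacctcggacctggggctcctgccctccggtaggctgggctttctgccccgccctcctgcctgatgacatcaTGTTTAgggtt
Car4: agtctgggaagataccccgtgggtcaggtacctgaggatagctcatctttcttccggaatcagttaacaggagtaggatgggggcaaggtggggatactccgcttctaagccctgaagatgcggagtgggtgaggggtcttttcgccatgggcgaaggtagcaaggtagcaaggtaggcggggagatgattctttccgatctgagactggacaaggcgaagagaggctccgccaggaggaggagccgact

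With the populations of each type pooled, *Car12* ran in opposite orders along the duct in clear and basal cells. In clear cells the intervals of neighboring libraries overlapped from the caput to the cauda. In clear cells it had 48.9 UPM (26.0 to 83.6, 13 UMIs) in the caput, 92.1 UPM (66.6 to 124, 43 UMIs) in the corpus, 94.99 UPM (71.6 to 124, 55 UMIs) in the cauda and 194 UPM (130 to 278, 29 UMIs) in the vas deferens. In basal cells it had 121 UPM (104 to 141), 83.2 UPM (72.2 to 95.4), 27.2 UPM (17.8 to 39.8) and 14.8 UPM (9.04 to 22.9) in the same order. The vas deferens to caput ratio was 3.96 (1.99 to 8.30) in clear cells, and the caput to vas deferens ratio was 8.19 (5.14 to 13.7) in basal cells. The clear cell values mix populations, as clear 2 came from the caput and corpus only. Clear 2 had 57.0 UPM (8 UMIs) in the caput and 47.6 UPM (9 UMIs) in the corpus. Clear 3 had 32.5 UPM (4 UMIs) and 123 UPM (32 UMIs) in the same libraries. The part of this mix in the order was not tested. The clear cells at the high end are the 38 with raised principal and basal cell markers, whose part in the level was not tested. Principal cells of that library had 0.427 UPM of *Car12* and basal cells 14.8 UPM.

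Set against each other, clear cells had 0.403 times (0.210 to 0.708) the *Car12* level of basal cells in the caput and 1.11 times (0.778 to 1.54) in the corpus. The ratio was 3.49 (2.15 to 5.81) in the cauda and 13.1 (7.15 to 24.4) in the vas deferens. Over these libraries the *Car2* ratio of clear to basal cells ran the other way, from 2.51 to 0.772. In the main basal population *Car12* had 124, 71.9, 21.9 and 14.2 UPM from the caput to the vas deferens, the reverse of the order of *Car2* in the same cells. Low-UMI basal cells had 143, 209, 116 and 26.6 UPM of *Car12* and Notch2 basal cells 44.5, 98.2, 34.3 and 16.3 UPM, both highest in the corpus, from 1 to 31 and 3 to 32 UMIs a library.

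Clear cells exceeded principal cells for *Car12* in each library. The ratio was 38.2 (24.6 to 61.6) with libraries pooled, 5.62 (2.46 to 12.7) in the caput, 21.8 (9.23 to 62.6) in the corpus, 165 (28.4 to 6644) in the cauda and 453 (115 to 3920) in the vas deferens. The wide intervals follow from 1 and 2 UMIs in principal cells of the cauda and vas deferens. Without the caput the pooled ratio was 92.5 and without the vas deferens 18.8. Basal cells likewise had 27.2 times (18.0 to 42.9) the level of principal cells.

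**Figure D3:**
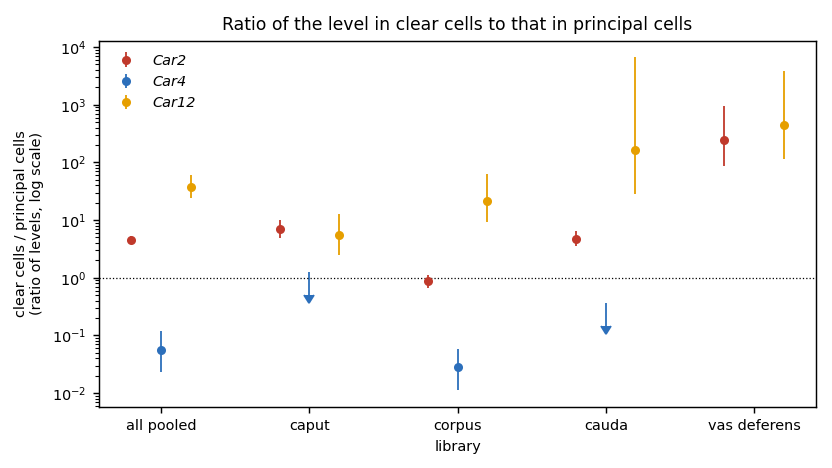
Ratio of the level in clear cells to that in principal cells on a log axis, for all libraries pooled and for each library, with exact conditional 95% intervals for counting error. Arrows mark upper limits where clear cells had no *Car4* UMI, and *Car4* has no ratio in the vas deferens, where neither type had a UMI. *Car12* lies above 1 in every library, *Car4* below 1 in the corpus, and *Car2* at 0.871 in the corpus and above 1 elsewhere.

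Within types, *Car12* was higher in the low-UMI basal population, with 156 UPM (117 to 204, 53 UMIs in 315 cells), than in the main basal population, with 63.9 UPM (57.2 to 71.3, 326 UMIs in 917 cells). The ratio was 2.44 (1.79 to 3.28) over all libraries and 2.91 (1.90 to 4.31) within the corpus, but 1.15 (0.655 to 1.91) within the caput. The basal cell markers *Cldn1*, *Itga6*, *Adm* and *Trp63* also peaked in low-UMI basal cells, with 1831, 590, 2324 and 85.5 UPM. Basal cells together had 725, 245, 1199 and 53.7 UPM. *Krt5* and *Krt14* peaked in other basal populations. *Car2* had 136 UPM in low-UMI and 177 UPM in main basal cells. The paper calls it unclear whether low-UMI basal cells are a meaningful population or a technical artifact. The part of their depth in the *Car12* level was not tested. Clear 2 had 51.6 UPM (30.1 to 82.6) against 108 UPM (89.7 to 130) in clear 3, a ratio of 0.476 (0.268 to 0.795), and 0.386 (0.162 to 0.828) within the corpus. Within the caput it was 1.75 (0.470 to 7.95), from 8 and 4 UMIs. In the corpus the Amylin-positive cells thus had less *Car12* than the main clear cells, with *Car2* not apart beyond counting error. Clear 1 had 115 UPM (37.2 to 267) from 5 UMIs.

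After thinning, 22 of 238 clear cells (9.24%, 5.88 to 13.7), 67 of 1155 basal cells (5.80%, 4.52 to 7.31) and 4 of 1894 principal cells (0.211%, 0.0576 to 0.540) had a *Car12* UMI. Muscle cells had 0 of 363, where 3 cells would be 0.826%. Unthinned, the shares were 20.1%, 21.9% and 0.556%.

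Against all genes, a 4-fold difference was not rare. Of 11169 genes with at least 20 UMIs in either type, 7.47% were at least 4-fold higher in clear than in principal cells with libraries pooled and 5.32% at least 4-fold lower, and the median ratio was 1.27. *Car2* and *Car12* were among the first and *Car4* among the second. By library, *Car2* passed in the caput (6.27% of genes), both *Car2* and *Car12* in the cauda (14.3%) and vas deferens (1.92%), and *Car12* alone in the corpus (7.00%), where *Car4* passed in the other direction (6.62%). In the caput, cauda and vas deferens no member passed as lower in clear cells (4.58%, 5.43% and 0.663% of genes). *Car4* could not pass there. With clear cells raised to 3 UMIs, its ratio of principal to clear cells was 1.08 in the caput and 3.55 in the cauda. Neither type had a *Car4* UMI in the vas deferens. *Car12* in the caput had too few UMIs to be counted. Between basal and principal cells, *Car12* passed as higher (9.72% of genes) and *Car4* as lower (13.1%) with libraries pooled.

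Of the 16 carbonic anhydrase genes sought, 15 were in the matrix, and 7 had at least 20 UMIs in 1 population. Beside the 3 genes above, *Car14*, a membrane enzyme, was a gene of stromal and muscle cells, with 81.1 and 97.1 UPM and its highest population in the IL6 stromal cells (171 UPM). The secretory stromal cells, a separate population, had no *Car14* UMI. Stromal cells had 176, 169, 29.0 and 5.18 UPM of *Car14* from the caput to the vas deferens. *Car13*, a cytosolic enzyme, had 68.7 UPM in immune cells, with 111 UPM in macrophages, and 54.2 UPM in basal cells, but 2.74 UPM in clear cells. Of its 335 basal cell UMIs, 213 were from the vas deferens. Basal cells had 158 UPM there, against 19.8, 29.2 and 23.0 UPM in the caput, corpus and cauda. All 4 clear cell UMIs of *Car13* were in the 38 clear cells of the vas deferens. *Car5b*, which encodes a mitochondrial enzyme, had 22.2 UPM in principal and 18.5 UPM in clear cells. *Car11*, an inactive relative, was highest in muscle cells with 13.8 UPM. Of the 15, 2 were higher in clear cells, 1 was lower, 5 did not pass 4-fold and 7 had under 20 UMIs in both types, where 7.47% of all genes were higher and 5.32% lower. Over the 8 counted the median ratio was 0.843 against 1.27 for all genes.

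**Figure D4:**
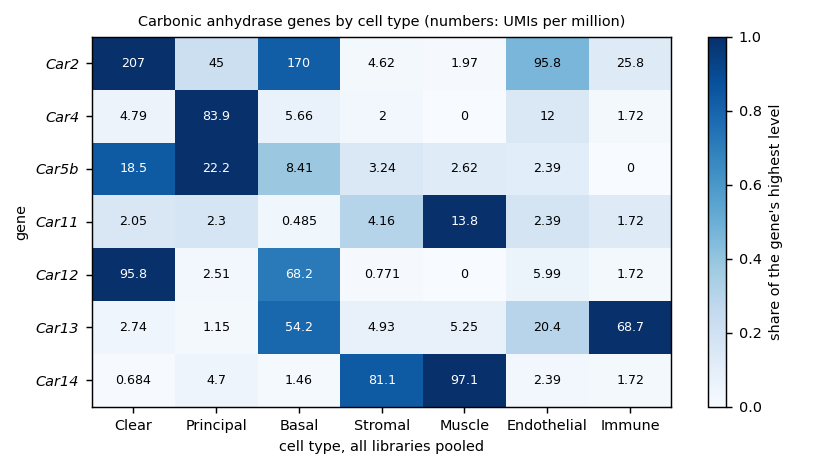
Carbonic anhydrase genes with at least 20 UMIs in 1 population, by cell type with all libraries pooled. Numbers are UPM and the shade is the share of the gene's own highest level. *Car2* and *Car12* are darkest in clear and basal cells, *Car4* in principal cells and *Car14* in muscle and stromal cells.

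Bicarbonate and protons made or used by these enzymes cross membranes through exchangers, pumps and channels. A list of 35 partner genes was set, of which 33 were in the matrix. Beside such carriers it held genes of other kinds, such as the forkhead factor gene *Foxi1*. The list was chosen with markers of clear cells in it. Between clear and principal cells, 10 were higher in clear cells, 3 were lower, 10 did not pass 4-fold and 10 had too few UMIs, where 7.47% of all genes were higher and 5.32% lower, with a median ratio of 3.15 over those counted against 1.27 for all genes. *Slc26a3*, a chloride and bicarbonate exchanger, had 431 UPM in clear and 4.70 UPM in principal cells. The pump subunit genes *Atp6v1b1*, *Atp6v1g3*, *Atp6v0d2*, *Atp6v1c2* and *Atp6v0a4* had ratios from 19.0 to 243. *Foxi1*, which is not a carrier gene, had 204. *Hvcn1*, a proton channel, had 13.6, the lactate transporter *Slc16a3* 6.54 and the sodium and proton exchanger *Slc9a2* 5.17.

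The 3 genes higher in principal cells, like *Car4*, were *Slc16a1*, a lactate transporter, with 94.6 UPM against 8.21 UPM in clear cells, *Aqp9*, a water and solute channel, with 55.6 against 3.42 UPM, and *Rhcg*, an ammonia transporter, with 46.5 against 8.21 UPM. *Aqp9* had its highest population in principal 6, as did *Car4*. Among genes that did not pass, *Slc4a4*, a sodium and bicarbonate cotransporter, had 7.42 UPM in principal cells and 1 UMI in clear cells. *Cftr* had 3.66 and 0.684 UPM.

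**Figure D5:**
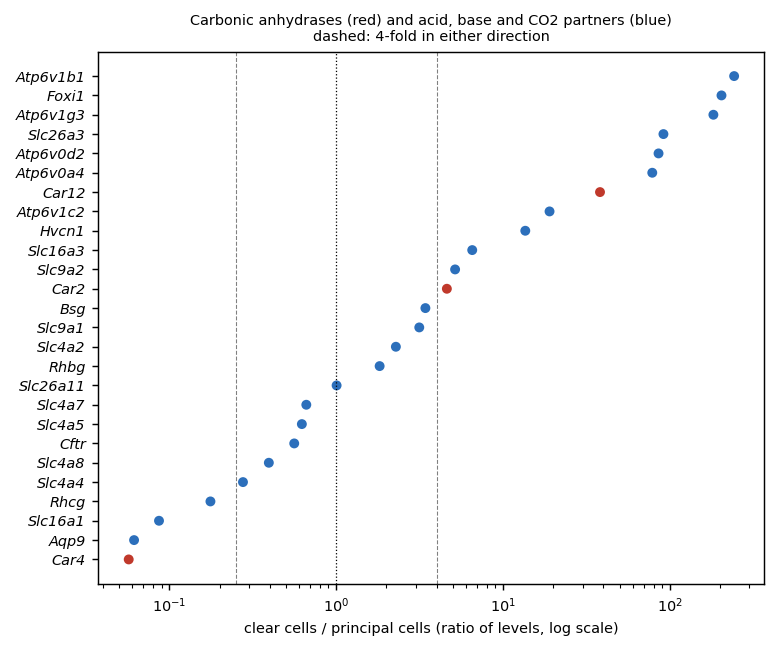
Ratio of the level in clear cells to that in principal cells, on a log axis with libraries pooled, for the 3 carbonic anhydrases in red and for the listed partners with at least 20 UMIs in either type in blue. A type under 3 UMIs was raised to 3 UMIs, and dashed lines mark 4-fold. *Car12* lies among the pump subunits at 38.2, and *Car4* lies at the low end at 0.0571.

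Genes whose levels followed each member over the 34 populations were ranked by Pearson's r of log2(UPM + 10), as a description, since populations share libraries and depth. *Car4* was followed most closely by *Defb26*, a beta-defensin gene (r = 0.92), *Cyp17a1* of steroid synthesis (0.90), the carboxypeptidase gene *Cpn1* (0.90), *Defb23* (0.89) and *Faim2* (0.87). Their highest populations were principal 6, principal 4 and principal 7. *Car12* was followed by *Serinc2* (0.94), the keratin gene *Krt7* (0.92), *Card10* (0.90), *Slc35g1* (0.88) and *Fat2* (0.88), which peaked in low-UMI basal or clear cells.

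*Car2* had no neighbor as close. Its nearest were *Ctnnal1* (0.77), the membrane protease gene *Hpn* (0.75), *Serpina3f* (0.75), the beta-defensin gene *Defb1* (0.75) and *Fgd6* (0.74), with highest populations in basal, principal and clear cells. *Hpn* peaked in principal 6 with 63.4 UPM and had 54.0 UPM in clear cells. Among the members, r was 0.55 for *Car2* and *Car12*, 0.46 for *Car2* and *Car4* and -0.07 for *Car4* and *Car12*. Spearman's rho for the same pairs was 0.47, 0.64 and 0.32, which turns the sign of the last and the order of the others.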

How the data were processed

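Single-cell RNA libraries of 4 regions were analysed. The authors aligned reads to mm10 (GRCm38), counted UMIs on RefSeq genes with ESAT, merged UMIs 1 base apart and subtracted ambient RNA (2.80% to 4.48% of UMIs) with a modified SoupX. The submitters' processing notes name bcl2fastq and HISAT2 2.0.4. The deposited counts are whole UMIs, and the deposited table of cells gives UMI counts before this removal, size factors (a score per cell that the authors computed with scran, relative to other cells) and cell labels, used without re-clustering. Principal populations carry the paper's numbers, matched by numbers of cells. The deposited label of clear 2 is Narrow. These cells were taken as the paper's Amylin-positive cells by their *Iapp* level and number of cells. The paper holds that Amylin-positive cells are unlikely to be narrow cells, so the label is not used as a name here.

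Here UMIs were summed by library and cell type. Intervals for levels are exact Poisson, for ratios exact conditional binomial and for shares Clopper-Pearson, at 95%. A floor of 3 UMIs was used against 0. A 4-fold rule needed 20 UMIs in the higher type. Likeness used genes with at least 100 UMIs, and the 5 nearest are named. Cells were thinned with a fixed seed. Doublets were called per library from simulated doublets (0.8% per 1000 cells, 1500 variable genes, 30 components), which marked 178 cells (2.00%), 17 of them clear cells, and recovered 26.4% to 51.3% of simulated doublets. They were kept. Genes named are the 3 members, other carbonic anhydrases with 20 UMIs in 1 population, the partner list and the nearest genes. The members and lists were chosen with earlier results of these data known. The matrix has no row for *Car1*, *Slc4a1* or *Slc4a10*. The call rule and the likeness were tested on simulated data. Alternatives covered depth, thinning, weighting, doublets, thresholds and each library left out. Bulk RNA sequencing was not analysed here. matplotlib 3.10.9, pandas 2.3.3, scikit-learn 1.9.0, scipy 1.17.1 and numpy 2.4.6 were run under Python 3.11.15, with GENCODE M21 for positions.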

Additional observations from a re-analysis of the deposited data

Results flagged for a closer look

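The *Car2* ratio of clear to principal cells was 0.871 (0.673 to 1.12) in the corpus, below 1, while the caput gave 7.09, the cauda 4.74 and the vas deferens 242, all above 1. The corpus interval includes 1, there is 1 library per region, and the difference between libraries was not tested. At 1000 UMIs per cell, *Car2* was seen in 17.3% of clear and 15.3% of principal cells of the corpus. In the corpus 286 *Car2* UMIs came from principal cells and 82 from clear cells.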

How the results depend on the processing

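The ratio of clear to principal cells stayed above 1 for *Car2* and *Car12* and below 1 for *Car4* under every alternative run, but its size moved. For *Car2*, with 4.61 as reported, it was 5.57 in cells with at least 1000 UMIs, 3.62 after thinning, 2.38 as a mean over cells, 3.01 with libraries given equal weight, 1.88 with the authors' size factors, 2.38 in the epididymal libraries alone, 11.4 without principal 6 and 7, and 2.38 to 12.6 with each library left out in turn. For *Car4*, with 0.0571, it was 0.0179 in cells with at least 1000 UMIs, 0 after thinning (no clear cell with a UMI), 0.218 as a mean over cells, 0.210 with size factors, 0.656 without principal 6 and 7, and 0 to 0.0806 with a library left out. For *Car12*, with 38.2, it was 24.0 as a mean over cells, 14.9 with size factors, 18.8 in the epididymal libraries and 18.8 to 92.5 with a library left out. The leaving out of principal 6 and 7 and of cells with shared barcodes was chosen after seeing the data. The cause of these moves was not tested.

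The genes nearest to each member depended on the measure. Of the 5 named, Spearman's rho kept 2 for *Car2*, 3 for *Car4* and 0 for *Car12*, an offset of 1 kept 2, 3 and 3, the 21 first-round clusters kept 1, 3 and 2, and a minimum of 20 UMIs kept 1 for *Car4* and 5 for each of the others. The count of genes higher in clear cells, 834 as reported, was 2313 at 2-fold, 403 at 8-fold and 2095 with a minimum of 1 UMI, and 636 to 870 with a library left out. Of 88 alternatives in all, 49 were within the interval of the reported value or within 1.5 times its count. A change of direction could be scored for the ratios only, and none of the ratios crossed 1. The epididymal libraries alone and the vas deferens left out are the same setting, counted under both names. No paired analysis was possible because each region has 1 library. Depth limits *Car4* in clear cells (3 UMIs would be 2.05 UPM) and *Car12* in principal cells, and variation between animals is not covered.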

Other observations

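Outside the epithelium, *Car2* in T cells had 90.6 UPM (43.5 to 167, 10 UMIs in 6 of 44 cells), and the endothelial level was 120, 66.9, 66.9 and 103 UPM from the caput to the vas deferens. Macrophages had 16.3 UPM from 5 UMIs, and dendritic cells had no *Car2* UMI.

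Whether single cells held a pair of these genes was counted without a test. Unthinned, *Car2* was seen in 52.9% of the clear cells with a *Car12* UMI and in 28.4% of those without. At 1000 UMIs per cell the shares were 18.2% and 16.7%. In corpus principal cells *Car2* was seen in 26.0% of cells with *Car4* and 12.5% of cells without, and after thinning in 18.0% and 14.04%. Within principal 6 alone the thinned shares were 19.4% and 22.4%. In basal cells the thinned share of *Car2* was 7.46% with *Car12* and 13.1% without, from 5 of 67 and 143 of 1088 cells.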
